A study of Homo sapiens with 6 samples.

Results

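The MAX network was described here through 10 genes: MAX, MXD1, MXD3, MXD4, MXI1, MNT, MGA, MLX, MLXIP and ZBTB17. They were chosen by name, as the rows of the count table whose symbol in the authors' deposited table is on that list, and each symbol matched 1 Ensembl gene of the 63677 genes in the table. RNA came from RPMI-8402, an established T-cell acute lymphoblastic leukaemia line in which every sample, controls included, stably carried the nuclease Cas9. Control cells received the solvent DMSO, and the others received doxycycline (DOX), which induced guide RNAs, for 72 hours, with 3 libraries in each group. As targets of the guides the series text gives MYC and MYCN, the treatment text MYC alone, and the genotype label a MYCN knockout, so both genes were taken as targeted. Whether the Cas9 cells were a pool or a clone was not given in the sources used here.

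MAX is a small basic helix-loop-helix leucine zipper protein that MYC and MYCN need as a partner to bind the DNA sequence CACGTG, the E-box. MAX also pairs with antagonists, namely MXD1, MXD3, MXD4, MXI1 and MNT, which bring the SIN3 corepressor and histone deacetylases to the same sites, and with MGA, the scaffold of a Polycomb complex. MLX is a MAX-like protein that pairs with MLXIP (MondoA), a sensor of glucose phosphates that drives TXNIP, and also with some antagonists. ZBTB17 (MIZ1) is a zinc finger factor outside the helix-loop-helix family, which MYC binds and turns from an activator into a repressor.

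Because network proteins bind the E-box, the promoters of the members were searched for it. RefSeq promoter windows (GRCh38.p14) matched 9 of the 10 members with 14 transcription starts, and the 250 bases before each start were read. The E-box CACGTG, which reads the same on both strands, was in 3 windows, 1 each of MXD4, MNT and MLX, and in 6.34% of all 35116 windows of that length in the table. The sequences of those 3 windows follow, 5′ to 3′ on the strand of the gene, with the E-box in capitals. They stand on GRCh38.p14 at chr4:2262110-2262359 (minus strand) for MXD4, chr17:2401061-2401310 (minus strand) for MNT and chr17:42566850-42567099 (plus strand) for MLX.
MXD4: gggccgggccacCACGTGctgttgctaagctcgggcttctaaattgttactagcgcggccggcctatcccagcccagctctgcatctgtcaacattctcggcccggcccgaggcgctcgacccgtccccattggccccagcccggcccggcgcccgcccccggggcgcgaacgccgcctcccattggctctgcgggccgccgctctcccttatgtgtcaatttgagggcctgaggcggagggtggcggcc
MNT: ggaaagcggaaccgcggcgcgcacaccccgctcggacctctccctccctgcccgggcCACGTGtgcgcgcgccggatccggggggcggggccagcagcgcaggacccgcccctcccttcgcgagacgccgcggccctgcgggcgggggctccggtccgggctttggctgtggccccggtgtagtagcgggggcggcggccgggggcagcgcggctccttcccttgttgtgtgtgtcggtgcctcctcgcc
MLX: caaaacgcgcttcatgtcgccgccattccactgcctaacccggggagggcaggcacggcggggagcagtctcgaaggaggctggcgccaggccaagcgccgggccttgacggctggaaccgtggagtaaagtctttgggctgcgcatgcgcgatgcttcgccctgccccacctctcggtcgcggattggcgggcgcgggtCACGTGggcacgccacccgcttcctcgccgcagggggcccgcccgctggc
The E-box ended 232 bases before the start in MXD4, 187 in MNT and 44 in MLX. The letters are a match only, and no binding was measured in these samples. CACGCG, another sequence that MAX dimers can bind, was searched on both strands and found in 1 window, of MGA, against 9.72% of all windows.

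All libraries were of similar depth, with 28602145 to 29204148 counts. CPM below are counts scaled to a common library size with TMM factors. One control, DMSO 11 (libraries are called by the number in their count column), lay nearer to the DOX libraries than to the other controls: its root mean square log2 difference over 9311 genes was 0.18 to 0.21 from the DOX libraries and 0.41 to 0.43 from DMSO 23 and DMSO 35. Over the 10 network genes alone these differences were 0.19 to 0.25 and 0.33 to 0.37. The members' fold changes and the counts of called genes in each list are therefore given with and without DMSO 11. Of 11 T-lineage markers, 10 had a mean of at least 1 CPM, with CD1A near 0, and their sum ran from 2001 to 2155 CPM over the controls and from 1940 to 1995 CPM over the DOX libraries. The sums of the B-lineage, myeloid, erythroid and epithelial markers were at most 4.17 CPM in any library. The 3 fibroblast markers summed to 2.44 to 7.14 CPM in DMSO and 9.18 to 9.77 CPM in DOX, nearly all of it COL1A1, with COL1A2 and DCN near 0. The part of COL1A1 in the results was not tested. The targeted genes stood at 76.8 to 109.5 CPM (DMSO) and 46.2 to 53.7 CPM (DOX) for MYCN, and at 201 to 279 CPM and 193 to 206 CPM for MYC. The labels do not say whether libraries came from separate cultures, and p-values cover only their spread, possibly technical. No library with DOX but without guides was analysed here.

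Within the network, 5 genes separated the groups and went in different directions. MXD4, MXD3 and MLXIP were higher in every DOX library than in every control, and MXI1 and MAX were lower, while MXD1, MNT, MGA, MLX and ZBTB17 overlapped between groups. Such separation was seen for 5 of the 10 members and for 30.2% of the 15949 genes tested. All 10 members passed the filter on low counts. EdgeR's quasi-likelihood test, adjusted over all genes, called 0 of the 10, in a comparison where it called 0.0313% of genes. DESeq2's Wald test called 3, against 9.81% of the genes to which it gave an adjusted p. MXD4 was called higher, against 3.37% of genes, and MXI1 and MAX lower, against 6.44%. Limma voom called 0. At an unadjusted edgeR p under 0.05 there were 5 members, against 26.0% of all genes. Without DMSO 11 edgeR called the same 5 genes that separated the groups, in a fit that called 49.4% of genes, so that share of the members was at the background. In 8 of the 10 members DMSO 11 was nearer the DOX mean than the mean of the other controls, as in 69.4% of all genes.

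**Figure D1:**
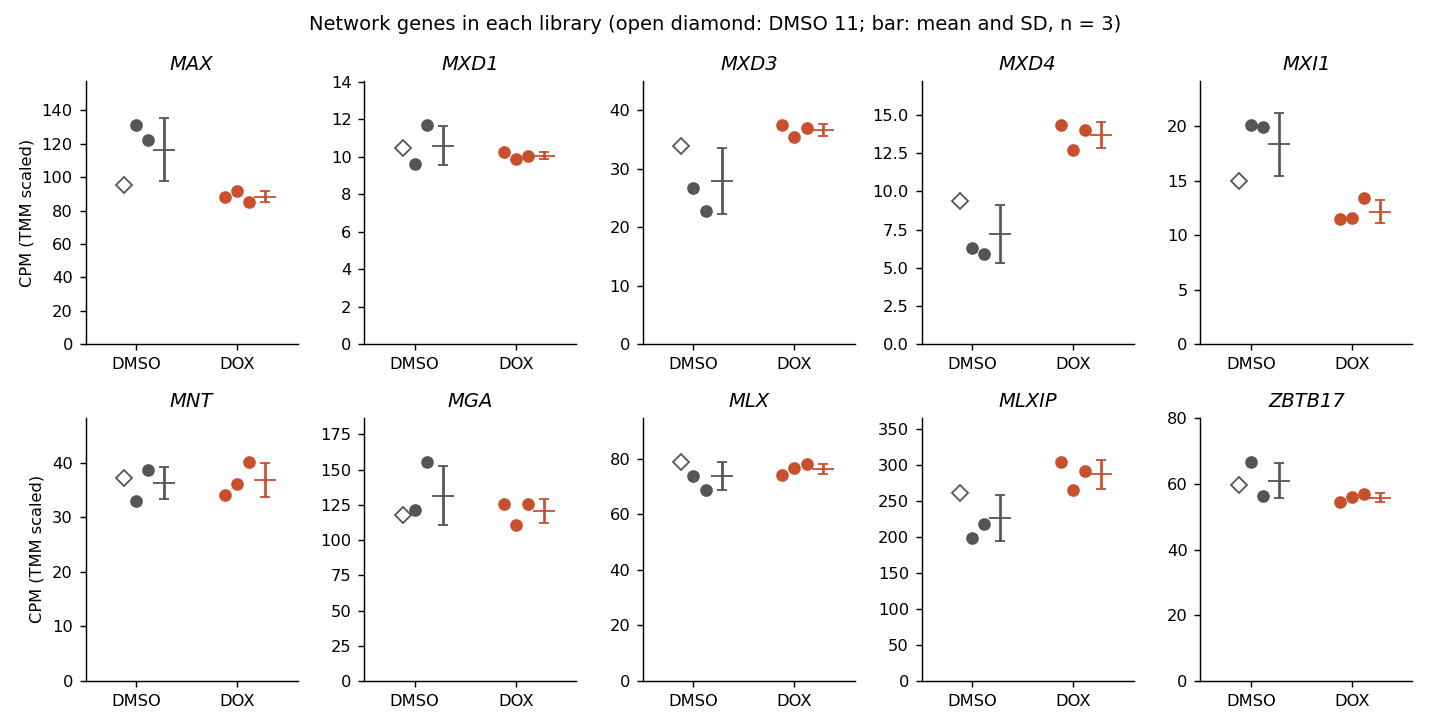
CPM of each network gene (vertical axes, from 0) in the 3 DMSO and 3 DOX libraries (points), with the mean and SD of each group (n = 3) and DMSO 11 as an open diamond. The groups do not overlap for MAX, MXD3, MXD4, MXI1 and MLXIP, and DMSO 11 is the control nearest the DOX libraries in each of these.

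MAX (ENSG00000125952, chromosome 14), the shared partner, held 95.2 CPM in DMSO 11, 131 in DMSO 23 and 123 in DMSO 35. It held 88.1 CPM in DOX 12, 91.9 in DOX 24 and 85.2 in DOX 36. The DOX libraries thus lay close together and just below DMSO 11, and well below the other controls. The log2 fold change was -0.40 ± 0.12 (SE), with an edgeR adjusted p of 0.110. DESeq2's adjusted p was 0.0491, next to the threshold of 0.05, and in the authors' deposited table it was 0.0448. Without DMSO 11 the edgeR fold change was -0.52 ± 0.06 (adjusted p = 1.65e-06), and the log2 difference of the DOX mean from DMSO 11 alone was -0.11. The exact two-sided permutation test gave p = 0.1 for each of the 5 genes that separated the groups, the smallest value that 3 libraries against 3 allow.

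Among the antagonists, the 2 with the largest differences went opposite ways. MXD4 (ENSG00000123933, chromosome 4), linked to cells that stop dividing and differentiate, held 9.36 CPM in DMSO 11, 6.30 in DMSO 23 and 5.92 in DMSO 35. In DOX it held 14.3, 12.7 and 14.0 CPM in libraries 12, 24 and 36. Every DOX library was above every control, and DMSO 11 was the highest control. The log2 fold change was 0.93 ± 0.18, or 1.91-fold, with adjusted p-values of 0.0846 (edgeR) and 0.000613 (DESeq2), and 1.16 ± 0.11 without DMSO 11 (edgeR adjusted p = 7.76e-08). Against DMSO 11 alone the DOX mean of MXD4 was higher by 0.54 on the log2 scale.

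MXI1 (ENSG00000119950, chromosome 10), an antagonist of the same family and fold, held 15.0, 20.1 and 19.9 CPM in DMSO 11, 23 and 35. It held 11.5, 11.6 and 13.4 CPM in DOX 12, 24 and 36. The DOX libraries were below all controls, again with DMSO 11 nearest. The log2 fold change was -0.59 ± 0.14, with adjusted p-values of 0.0915 (edgeR) and 0.0107 (DESeq2), and -0.72 ± 0.10 without DMSO 11 (edgeR adjusted p = 4.21e-06). The log2 difference of the DOX mean from DMSO 11 alone was -0.30. None of the 3 promoter windows of MXI1 held CACGTG.

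MXD3 (ENSG00000213347, chromosome 5), the family member associated with S phase and proliferating cells, held 34.0, 26.8 and 22.8 CPM in DMSO 11, 23 and 35. It held 37.5, 35.5 and 37.0 CPM in the DOX libraries 12, 24 and 36. DMSO 11 was close to DOX 24, and the other 2 controls were well below. The log2 fold change was 0.40 ± 0.14, with adjusted p-values of 0.137 (edgeR) and 0.0939 (DESeq2), so neither test called it, and 0.56 ± 0.08 without DMSO 11 (edgeR adjusted p = 1.47e-05). The DOX mean differed by 0.11 from DMSO 11 alone and by 0.57 from the mean of the other controls, on the log2 scale.

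The remaining antagonists, MXD1 and MNT, showed little difference. MXD1 (ENSG00000059728, chromosome 2), the founding MAD protein, ranged from 9.62 to 11.7 CPM in DMSO and from 9.88 to 10.3 CPM in DOX, with a log2 fold change of -0.07 ± 0.12. MNT (ENSG00000070444, chromosome 17), the most broadly expressed antagonist, ranged from 33.1 to 38.8 CPM in DMSO and from 34.2 to 40.2 CPM in DOX, with a log2 fold change of 0.02 ± 0.10. DOX libraries lay inside or across the control range in both genes, and the edgeR adjusted p-values were 0.704 and 0.917. Without DMSO 11 the fold changes of MXD1 and MNT were -0.08 ± 0.11 and 0.04 ± 0.09 (edgeR adjusted p = 0.545 and 0.761). MNT and MLX carry the same E-box letters as MXD4 in the windows printed above, and their fold changes of 0.02 and 0.05 stand beside 0.93 for MXD4. The part of the E-box in these differences was not tested.

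**Figure D2:**
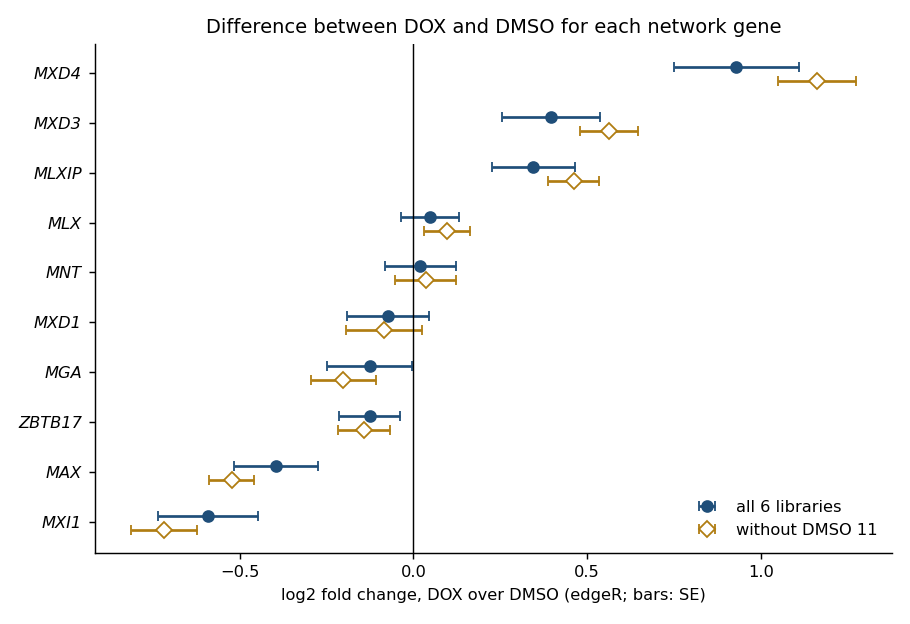
Log2 fold change of each network gene, DOX over DMSO (horizontal axis), with its SE, from edgeR on all 6 libraries (filled circles) and without DMSO 11 (open diamonds). MXD4 is farthest to the right at 0.93 and MXI1 farthest to the left at -0.59, and without DMSO 11 each of the 10 genes keeps its direction and lies farther from 0.

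MGA (ENSG00000174197, chromosome 15), a very large protein that joins a MAX-binding domain to a T-box, held 118, 122 and 156 CPM in DMSO 11, 23 and 35 and 111 to 126 CPM in DOX. The groups overlapped, and the highest value was that of DMSO 35. Its log2 fold change was -0.13 ± 0.12 (edgeR adjusted p = 0.517), and was -0.20 ± 0.09 without DMSO 11 (edgeR adjusted p = 0.0852) and 0.008 without DMSO 35. The 11 other subunits listed for its Polycomb complex, PRC1.6, had a median log2 fold change of -0.07, against a median of -0.003 over all genes tested. EdgeR and DESeq2 each called 0 of them on all 6 libraries. Without DMSO 11 edgeR called 1 higher and 5 lower of the 11, in the fit that called 49.4% of all genes, with a median of -0.06. RYBP and YAF2, related subunits that hold the RING ligase, were at -0.54 ± 0.19 and -0.46 ± 0.17, and the E2F partner TFDP1 was at 0.23 ± 0.19. For RYBP and YAF2, DMSO 11 (79.8 and 30.5 CPM) lay below the DOX mean (80.6 and 31.0 CPM), and the groups overlapped. TFDP1 overlapped too, with 187, 108 and 118 CPM in DMSO 11, 23 and 35 against a DOX mean of 162 CPM. Without DMSO 11 TFDP1 was the gene called higher, at 0.51 ± 0.06 (edgeR adjusted p = 2.49e-06).

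Of 20 listed germline genes that PRC1.6 is known to silence, 6 were tested, and 1, the meiotic cohesin SMC1B, was called by DESeq2 as lower, at -0.79 ± 0.28 (DESeq2 adjusted p = 0.0422). In SMC1B the groups overlapped, with 44.8 CPM in DMSO 11 against 104 and 107 CPM in the other controls and 46.2 to 54.4 CPM in DOX. The cohesin gene STAG3 was at 0.53 ± 0.22 and was not called. The list's median was -0.16. Over all genes DESeq2 called 6.44% lower. EdgeR called 0 of the 6 on all libraries, and 2 higher and 3 lower without DMSO 11, with a median of -0.23. That fit without DMSO 11 called 49.4% of all genes.

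The Mondo branch differed between its subunits. MLXIP (ENSG00000175727, chromosome 12) held 262, 199 and 218 CPM in DMSO 11, 23 and 35. It held 305, 266 and 292 CPM in DOX 12, 24 and 36. The lowest DOX library was just above DMSO 11. The log2 fold change was 0.35 ± 0.12, with adjusted p-values of 0.130 (edgeR) and 0.0777 (DESeq2), and 0.46 ± 0.07 without DMSO 11 (edgeR adjusted p = 3.13e-05). Against DMSO 11 alone it was 0.13. MLX (ENSG00000108788, chromosome 17), its partner, ranged from 68.7 to 79.0 CPM in DMSO and from 74.3 to 78.0 CPM in DOX. Its DOX libraries all lay within the control range, and its log2 fold change was 0.05 ± 0.08 (0.10 ± 0.07 without DMSO 11, edgeR adjusted p = 0.235). MLXIPL, the relative of MLXIP known as ChREBP, held 1 count in 1 of the 6 libraries and was not tested.

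Genes listed here as targets of MLXIP and MLX were lower in DOX where DESeq2 called them. Of 5 tested, DESeq2 called 3 lower and 0 higher, against 6.44% and 3.37% of genes, and edgeR called 0. The median log2 fold change was -0.87. Without DMSO 11 edgeR called 1 higher and 3 lower, with a median of -1.09. That fit called 49.4% of all genes. TXNIP, the brake on glucose uptake, was at -2.15 ± 0.35, with 132 CPM in DMSO 11 and a DOX mean of 66.9 ± 3.44 CPM (SD, n = 3). KLF10, a zinc finger repressor, was at -0.87 ± 0.21 (DESeq2 adjusted p = 0.00350) where DMSO 11 held 25.4 CPM and the DOX libraries 20.8 ± 1.58 CPM. The third was ARRDC4, at -1.36 ± 0.38, which lies below the minimum of 10 CPM for named genes and was added after its values were seen. The fatty acid synthase FASN was at 0.31 ± 0.29. It held 580, 235 and 285 CPM in DMSO 11, 23 and 35, against a DOX mean of 454 CPM. Without DMSO 11 FASN was the gene called higher, at 0.80 ± 0.08 (edgeR adjusted p = 1.89e-07). ACACA was at -0.08 ± 0.10 (edgeR adjusted p = 0.640), or 0.003 without DMSO 11. The groups overlapped for FASN and ACACA.

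ZBTB17 (ENSG00000116809, chromosome 1) held 59.7, 66.8 and 56.4 CPM in DMSO 11, 23 and 35 and 54.4 to 57.0 CPM in DOX. The groups overlapped by the lowest control alone, and the log2 fold change was -0.13 ± 0.09 (edgeR adjusted p = 0.380; -0.14 ± 0.08 without DMSO 11). Of its 7 listed targets 4 were tested, and DESeq2 called 1 higher and 1 lower, against 3.37% and 6.44% of genes. The survival gene BCL2 was higher, from 15.8 ± 1.43 to 23.4 ± 0.429 CPM (log2 fold change 0.57 ± 0.10, DESeq2 adjusted p = 0.000892). The vesicle fusion gene VAMP4 was lower at -0.56 ± 0.17 (DESeq2 adjusted p = 0.0379), where DMSO 11 held 23.8 CPM and the DOX libraries 22.5 ± 1.30 CPM. EdgeR called 0 of the 4 on all libraries, and 2 higher and 1 lower without DMSO 11, in the fit that called 49.4% of all genes. The median was 0.35 with that library and 0.42 without it. Under a stricter filter, at least 1 CPM in 3 libraries, the median on all libraries was 0.15.

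Levels of different genes were compared per exon length, as TPM (length-scaled shares of each library) computed here with gene lengths from GENCODE 29. MAX was the most abundant member in DMSO at 114 ± 21.9 TPM (SD, n = 3), followed by MLX at 74.8 ± 1.96, MLXIP at 70.2 ± 7.87 and ZBTB17 at 62.1 ± 5.41. MGA at 32.4 ± 6.51, MXD3 at 23.2 ± 3.68, MNT at 18.0 ± 1.85 and MXI1 at 17.3 ± 3.35 TPM formed the middle of the order. MXD1 at 7.22 ± 0.944 and MXD4 at 4.37 ± 0.955 TPM were lowest. Of the 9 pairs of neighbours in this order, 4 had overlapping libraries, namely MLX and MLXIP, MLXIP and ZBTB17, MXD3 and MNT, and MNT and MXI1.

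In DOX the order began with MLXIP at 90.0 ± 8.02 TPM, whose range overlapped that of MAX at 86.7 ± 2.30 TPM. MXD3 at 30.9 ± 1.49 TPM overlapped MGA at 29.7 ± 2.70 TPM, and the other 7 pairs of neighbours did not overlap. MXD4 at 8.44 ± 0.691 TPM stood above MXD1 at 6.89 ± 0.261 TPM, the reverse of their order in DMSO. With the longest transcript as the length, MXD3 stood above MGA in DMSO too, and MLX above MAX in DOX. For scale, MYC was at 353 ± 53.8 TPM in DMSO and 289 ± 11.9 TPM in DOX, and MYCN at 152 ± 30.2 and 83.5 ± 6.16 TPM, and in each control library both stood above MAX per exon length. With the longest transcript as the length MYC stayed above MAX in each control, while MYCN had a DMSO mean of 106.5 TPM against 112.4 for MAX and was above it only in DMSO 23.

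**Figure D3:**
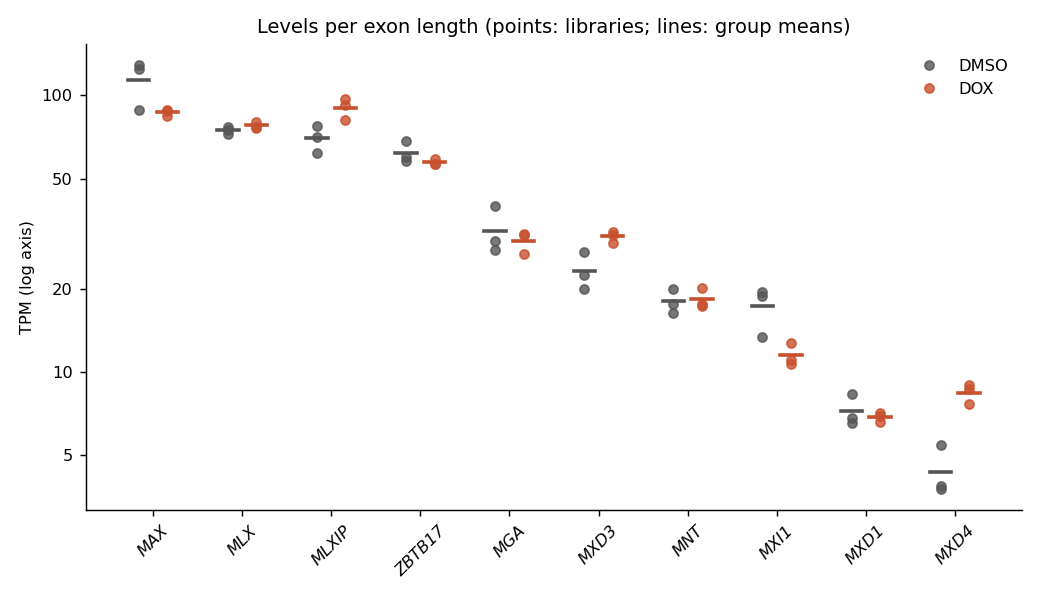
Levels per exon length in TPM (logarithmic vertical axis) of the 10 network genes, ordered by their DMSO mean, with libraries as points and group means as lines. MAX is highest in DMSO at 114 TPM and MLXIP highest in DOX at 90.0 TPM, and MXD4 is last in DMSO at 4.37 TPM and stands above MXD1 in DOX.

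The 5 antagonists were also summed, and their shares of the sum were read. MXD1, MXD3, MXD4, MXI1 and MNT together came to 70.5, 68.3 and 71.6 TPM in DMSO 11, 23 and 35 and to 76.6, 71.8 and 79.9 TPM in DOX 12, 24 and 36, just without overlap. With the longest transcript as the length the group means of this sum were 86.0 and 98.0 TPM, a wider difference than per exon length and again without overlap. MXI1 made up 24.7% ± 4.88 (SD, n = 3) of this sum in DMSO and 15.1% ± 0.789 in DOX. MXD4 made up 6.24% ± 1.34 and 11.1% ± 0.561, and MXD3 33.2% ± 5.36 and 40.7% ± 1.35. The share of MNT overlapped between groups, at 25.7% ± 2.07 and 24.1% ± 1.37. With the longest transcript as the length the mean shares in DMSO and DOX were 18.8% and 10.9% for MXI1. They were 5.94% and 10.1% for MXD4 and 42.8% and 50.3% for MXD3. The sizes of the shares thus depend on the length used, while the directions of these 3 stayed, without overlap. The ratio of MXD4 to MXI1 was 0.408 in DMSO 11, 0.204 in DMSO 23 and 0.194 in DMSO 35, against 0.681 to 0.814 in DOX, so DMSO 11 stood between the other controls and the DOX libraries.

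Against the MYC family the antagonists took a larger place in DOX, and here DMSO 11 sat among the controls. MYC, MYCN and MYCL summed to 510, 475 and 537 TPM in DMSO 11, 23 and 35 and to 384, 369 and 374 TPM in the DOX libraries, a mean of 507 ± 31.0 against 376 ± 7.65 TPM. The antagonist sum had means of 70.1 ± 1.69 and 76.1 ± 4.06 TPM. Antagonists divided by MYC family were at 0.138, 0.144 and 0.133 in the controls and 0.199, 0.194 and 0.213 in DOX. The denominator holds the targeted genes. With the longest transcript as length the mean ratios were 0.203 and 0.306. MAX divided by the same sum was 0.225 ± 0.0483 in DMSO and 0.231 ± 0.00736 in DOX, with overlapping groups, and ran from 0.174 in DMSO 11 to 0.270 in DMSO 23. These ratios are descriptions of RNA, without a test. A count reports neither the edit at a cut site nor the protein.

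**Figure D4:**
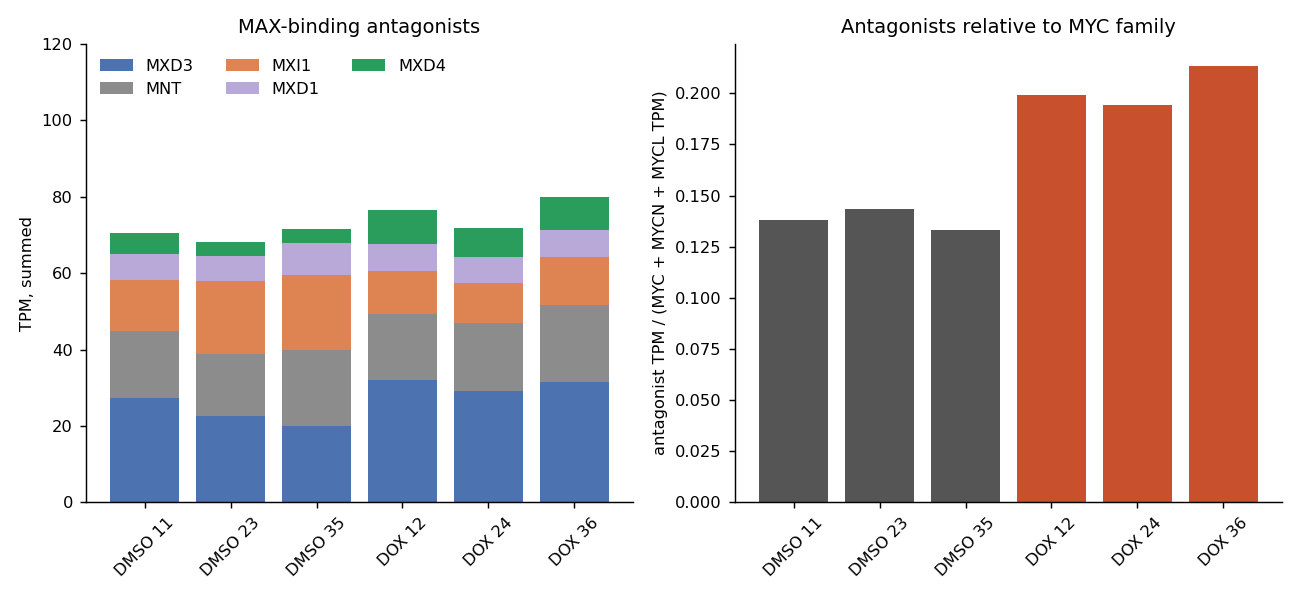
Left, TPM of the 5 antagonists stacked for each library; right, their sum divided by the sum of MYC, MYCN and MYCL (bars from 0, 1 per library). The stacks reach 68.3 to 79.9 TPM, and the ratio is 0.133 to 0.144 in DMSO and 0.194 to 0.213 in DOX.

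Genes whose pattern over the 6 libraries was most like that of the 3 members with the largest differences were read by the root mean square difference of centred log2 CPM among 9301 genes. For MXD4 these were C1orf132 (0.03), the receptor kinase gene FGFR1 (0.08) and AIF1L (0.10). For MXI1 they were CHAC1, which degrades glutathione (0.04), FBXO44 (0.04) and POU2AF1 (0.05), and for MXD3 they were FDXR (0.03), RAB7L1 (0.04) and EME2 (0.05). The third place was a tie to 2 decimals, with MXD3 at 0.40 and MAX at -0.40, and MAX was the larger with no filter on low counts and in the authors' deposited table. For MAX, added because of this tie after its values were seen, the genes were HEMK1 (0.02), DNAJA3 (0.02) and NSMCE1 (0.03). In each of these 12 genes DMSO 11 lay between the DOX libraries and the other controls, as it did in these 4 members. This follows from picking the genes by likeness to the members over the same libraries, and is no separate result. The measure was read over 6 libraries and carries no test.

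Cofactors of the network differed in both directions. Of 17 genes of the SIN3 and histone deacetylase corepressor, which the antagonists recruit, edgeR and DESeq2 called 0 on all 6 libraries. Without DMSO 11 edgeR called 5 higher and 6 lower of the 17, in the fit that called 49.4% of all genes. Their median log2 fold change was -0.07 with that library and -0.10 without it. The deacetylase HDAC1 was at 0.39 ± 0.15, or 0.59 without DMSO 11 (edgeR adjusted p = 1.85e-06), with 572 CPM in DMSO 11 against a DOX mean of 594 ± 32.0 CPM, and SIN3B was at 0.17 ± 0.08. ING1 and SAP30, small subunits of the complex, were at -0.44 ± 0.14 and -0.39 ± 0.15.

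Of 23 MYC coactivators, mostly of the TRRAP and TIP60 complexes, DESeq2 called 1 higher and 4 lower, against 3.37% and 6.44% of genes. EdgeR called 0, and the median was -0.06. With DMSO 11 left out, edgeR called 8 higher and 8 lower, with a median of -0.02. That fit called 49.4% of all genes. DMAP1 was the higher one at 0.38 ± 0.09 (DESeq2 adjusted p = 0.0172). The helicase RUVBL1 was lower, from 155 ± 8.01 to 124 ± 1.49 CPM (-0.32 ± 0.08, DESeq2 adjusted p = 0.0156), and its value in DMSO 11, 164 CPM, was above the control mean. TADA3 at -0.39 ± 0.09 and YEATS4 at -0.45 ± 0.12 were also lower, with adjusted p-values of 0.0137 and 0.0237 by DESeq2. The fourth, ING3, was at -0.53 and is named because the count is small.

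Among 20 genes that control the stability of MYC, DESeq2 called 1 lower and 0 higher, against 6.44% and 3.37% of genes. EdgeR called 0, and the median was 0.01. Without DMSO 11 edgeR called 5 higher and 5 lower of the 20, with a median of 0.04. That fit called 49.4% of all genes, so this share was at the background. FBXW7, the ubiquitin ligase receptor that marks MYC for degradation, was at 0.24 ± 0.11 and AURKA, which protects MYCN, at 0.12 ± 0.08. The called gene was the ligase receptor FBXO32 at -1.55, with a mean of 5.95 CPM, named after its values were seen.

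Other helix-loop-helix zipper factors that read E-boxes were lower where DESeq2 called them. Of 8 tested, DESeq2 called 3 lower and 0 higher, against 6.44% and 3.37% of genes. EdgeR called 0, and the median was -0.17. In the fit without DMSO 11, which called 49.4% of all genes, edgeR called 1 higher and 4 lower, with a median of -0.16. TFAP4, a MYC target and E-box factor, went from 51.3 ± 9.47 to 33.1 ± 2.15 CPM (log2 fold change -0.63 ± 0.14, DESeq2 adjusted p = 0.00408), with 40.8 CPM in DMSO 11. The sterol regulators SREBF1 and SREBF2 were at -0.41 ± 0.09 and -0.29 ± 0.08 (DESeq2 adjusted p = 0.000980 and 0.0200), and DMSO 11, at 396 and 365 CPM, stood with the other controls. USF1 was at 0.24 ± 0.16 and TFE3 at 0.05 ± 0.09, and neither was called on all 6 libraries. Without DMSO 11 USF1 was the gene called higher, at 0.46 ± 0.07 (edgeR adjusted p = 2.30e-05). It held 91.9, 63.7 and 58.6 CPM in DMSO 11, 23 and 35, against a DOX mean of 84.4 ± 4.95 CPM, and the groups overlapped.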

How the data were processed

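RNA of 6 libraries was sequenced as strand-specific pairs, per the labels' protocols. The deposited table holds raw counts per Ensembl gene; per the submitters' processing notes, STAR 2.5.2a, featureCounts, DESeq2 1.12.4 and hg19 were used in roles not stated. How strand was treated in counting was not given in the sources used here. MAX (with FNTB), MXD1 (SNRNP27), MXD3 (RAB24, PRELID1) and MLX (PSMC3IP), which overlap other expressed genes, may share reads with them. The authors' deposited comparison gives, per the file headers, a mean normalised signal, log2 fold changes with errors, a test score and p-values.

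Columns carry the group but no replicate number of the labels. The 92 spike-in rows held 0 counts and were left out. All library pairs differed beyond sampling noise, so no library was taken as a copy of another, and each entered the fits on its own. This cannot decide whether they came from separate cultures, since technical libraries can differ in that way too. The test was edgeR 4.0.16 (filterByExpr, TMM, robust quasi-likelihood, group only; R 4.3.3) with Benjamini-Hochberg adjustment over 15949 genes at 0.05; the SE is the fold change over the square root of F. DESeq2 1.42.0 and limma 3.58.1 (voom), other scalings and filters, libraries left out, a block of neighbouring column numbers and another gene length were alternatives, and the code was tested on simulated data. Log2 CPM used a prior count of 2. TPM used GENCODE 29 exon lengths (GRCh38), which cover 99.1% of counts; the build differs from that of the counts.

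The members and lists were chosen with earlier results of these data known. Named genes were the members, MYC, MYCN, MYCL and MLXIPL, up to 3 genes per list and direction by edgeR p with at least 10 CPM, and the 3 genes nearest in pattern to each of the 3 members with the largest fold changes.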

Additional observations from a re-analysis of the deposited data

How the results depend on the processing

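The count columns carry none of the replicate numbers of the labels, so no block on those numbers was run. A replicate block of libraries with neighbouring column numbers (11 with 12, 23 with 24, 35 with 36), a pairing no label states, gave 3 genes called and 0 members, with MAX at -0.38, MXD4 at 0.95 and MXI1 at -0.58. Deviations from the group means correlated at 0.05 to 0.07 within these pairs over 9311 genes and at -0.18 to 0.13 between other DMSO and DOX libraries. With 3 libraries in a group their deviations are tied to each other. The correlations therefore cannot decide whether the numbers pair the libraries, and the main fit used the group only. The edgeR count of 5 genes called became 1383 with DESeq2, 1761 with no filter on low counts and 1594 with edgeR's likelihood ratio test. With 1 library left out edgeR gave 0 to 8109, the highest without DMSO 11 and 0 without any other, where 2273 to 2629 genes had an unadjusted p under 0.05. DESeq2 without DMSO 11 gave 6806. The block, the likelihood ratio test and DESeq2 without DMSO 11 were chosen after seeing the data. The count of 0 members called became 3 with DESeq2 (9.81% of genes called) and 3 with the likelihood ratio test (9.99%). It was 4 with no filter, where 1761 of 31682 genes were called. DESeq2 without DMSO 11 called 5 members and 41.5% of genes. EdgeR with 1 library left out called 0 to 5 members, the 5 without DMSO 11, where 49.4% of genes were called.

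Past the threshold, MAX was at -0.39 (DESeq2), -0.41 (no filter), -0.40 (likelihood ratio test) and -0.52 (DESeq2 without DMSO 11), and -0.52 to -0.30 over fits without 1 library. MXD4 was at 0.93, 0.92, 0.93 and 1.17 in the same order, and 0.80 to 1.16 without 1 library. MXI1 was at -0.59, -0.60, -0.59 and -0.71, and -0.72 to -0.52. MXD3 passed with no filter (0.38) and with DESeq2 without DMSO 11 (0.57), and ran from 0.27 to 0.56 without 1 library, and MLXIP passed with DESeq2 without DMSO 11 (0.47) and ran from 0.26 to 0.46. In each of these 5 genes the edgeR fit without DMSO 11 was the only one of the 6 such fits past the threshold. Directions turned in 3 members near 0: MNT was at -0.0473 without DMSO 23 and -0.0486 without DOX 36 (range -0.0486 to 0.0770), MGA at 0.00844 without DMSO 35 (-0.20 to 0.00844) and MLX at -0.00619 without DMSO 35 (-0.00619 to 0.10). MXD1 ran from -0.14 to -0.0009 and ZBTB17 from -0.18 to -0.06. The cause was not tested. Of 144 list medians under alternatives, 124 moved by less than the spread between libraries.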
